A study of Mus musculus with 9 samples.

Results

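The let-7 guide strands are the 8 mature miRNAs let-7a-5p, let-7b-5p, let-7c-5p, let-7d-5p, let-7e-5p, let-7f-5p, let-7g-5p and let-7i-5p. They were taken by name from the 358 miRNAs measured in mouse epididymosomes, and all 8 were present in every library. Epididymosomes are small membrane vesicles shed by the epididymal epithelium into the lumen through which spermatozoa pass. They were recovered on a density gradient from the caput, corpus and cauda, the proximal, middle and distal segments, of untreated inbred Swiss male mice aged 8 weeks. Each segment was represented by 3 libraries, and each library was made from RNA of several animals, which makes a replicate a pool and not a single mouse. By their labels the groups differ by segment alone, and the labels give no batch.

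MicroRNAs are short RNAs that guide Argonaute proteins to partly matching messenger RNAs, whose translation or stability then falls. A hairpin precursor is cut into a duplex, of which the guide strand is usually retained and the passenger strand usually discarded. Target choice rests mainly on the seed, the bases near the 5′ end of the guide. The let-7 family is known for restraining growth-promoting genes such as Ras, Myc, Hmga2 and Lin28 and for rising as cells differentiate, while the Lin28 proteins block the processing of most let-7 precursors.

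The mature sequences are shown because members as close as these can be told apart by sequencing only at a few bases. They come from RefSeq (GRCm38.p6), run 5′ to 3′ and carry the seed, bases 2 to 8, in capitals.
let-7a-5p: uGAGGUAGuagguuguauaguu
let-7b-5p: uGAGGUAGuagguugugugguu
let-7c-5p: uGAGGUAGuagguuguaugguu
let-7d-5p: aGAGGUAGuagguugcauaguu
let-7e-5p: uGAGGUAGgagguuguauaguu
let-7f-5p: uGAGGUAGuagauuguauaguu
let-7g-5p: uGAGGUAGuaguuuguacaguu
let-7i-5p: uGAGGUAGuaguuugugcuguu
miR-98-5p: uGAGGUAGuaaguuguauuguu

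All 8 members had the same seed and an annotated length of 22 bases. The lengths of their reads were not examined, and whether library preparation captured the members equally was not tested. The last line, miR-98-5p, is the only other miRNA with this seed and a RefSeq sequence that the data held. Counting from 1 at the 5′ end of let-7a-5p, let-7c-5p differed from it by A19G, let-7e-5p by U9G and let-7f-5p by G12A. The other members differed from let-7a-5p at 2 positions or more: let-7b-5p by A17G and A19G, let-7d-5p by U1A and U16C, and let-7g-5p by G12U and U18C. The farthest was let-7i-5p, with G12U, A17G, U18C and A19U. A single base thus separated let-7a-5p from let-7c-5p, let-7e-5p and let-7f-5p, and let-7b-5p from let-7c-5p. Reads of these 5 members could have been shared between neighbours in the authors' counting, whose mismatch setting is not given in the sources used here. let-7i-5p stood at least 2 bases from every other member. A further name of the family in the data, let-7j, had no RefSeq sequence to compare, so reads shared with it were not assessed.

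The hairpins lie at scattered places of the genome (GRCm38). Those of let-7d, let-7f-1 and let-7a-1 fall in exons of the long non-coding RNA 6720427I07Rik on chromosome 13, and those of let-7c-2 and let-7b in exons of Lncppara on chromosome 15. The let-7c-1 hairpin lies in an intron of Mir99ahg on chromosome 16, let-7e in an intron of Spaca6 on chromosome 17, let-7a-2 in introns of 3110039I08Rik and let-7g in an intron of Wdr82 at distant places of chromosome 9, and let-7f-2 with miR-98 in an intron of Huwe1 on the X chromosome. let-7i lies alone on chromosome 10, in an exon of the transcribed pseudogene D630033A02Rik. Since let-7a-5p, let-7c-5p and let-7f-5p each come from 2 hairpins, their levels are sums over loci.

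The let-7 guide strands were abundant cargo in all segments. Levels are given as CPM, in which the reads of each miRNA are divided by the total on miRNAs in that library, with SD over n = 3 libraries. Together the members took 3.32, 1.76 and 4.14% of the reads in the 3 caput libraries, 3.21, 3.82 and 3.14% in corpus libraries and 3.15, 3.47 and 2.99% in cauda libraries. The lowest and the highest of these 9 values were both from the caput, and the segment means of 3.07 ± 1.21%, 3.39 ± 0.372% and 3.20 ± 0.247% differed by less than the spread between caput replicates. Caput libraries held 11306605, 8274421 and 8453380 reads on miRNAs. Corpus libraries held 6190324, 2553385 and 1548581, and cauda libraries 2001086, 2184582 and 5896748. Every caput library was thus deeper than every corpus and cauda library, so depth went along with segment there. The members had from 575 to 133992 reads in a library, so that counting error was at most 4.17% of a member's value.

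Caput replicate 2 stood apart from the other libraries. It held the lowest caput value of all 8 members, at 0.363 times the lower of the other caput libraries for let-7f-5p up to 0.787 times for let-7b-5p. In that library 3 miRNAs, miR-10a-5p, miR-10b-5p and miR-143-3p, took 76.3% of all reads, against 59.3 to 68.4% elsewhere. CPM values are shares of a fixed total, so the tests between segments are also given after TMM normalization, which scales libraries by the trimmed mean of their log ratios over miRNAs. The TMM factor was 0.478 for caput replicate 2, 0.753 for caput replicate 1 and 1.08 to 1.29 in the other libraries. For the comparison of caput and cauda, the library size value of each member is also given without caput replicate 2.

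The same members, let-7c-5p, let-7f-5p and let-7a-5p, led the family in every segment. In the caput it ran, by mean CPM, let-7c-5p, let-7f-5p, let-7a-5p, let-7b-5p, let-7g-5p, let-7i-5p, let-7e-5p and let-7d-5p. The ranges of every pair of neighbours overlapped across the caput libraries. Within libraries the order held in 3 of 3 for each pair except let-7c-5p over let-7f-5p and let-7b-5p over let-7g-5p, in 2 of 3. In both the corpus and the cauda it ran let-7f-5p, let-7c-5p, let-7a-5p, let-7i-5p, let-7g-5p, let-7b-5p, let-7d-5p and let-7e-5p. Neighbours that overlapped there were let-7f-5p and let-7c-5p in both segments, let-7i-5p with let-7g-5p and let-7d-5p with let-7e-5p in the corpus, and let-7a-5p with let-7i-5p in the cauda. Within libraries of these segments the order held in 3 of 3 for each pair, except let-7f-5p over let-7c-5p in the cauda, in 2 of 3. let-7i-5p moved up among the members, and from rank 40 of the 358 miRNAs in the caput to rank 29 in corpus libraries and rank 24 in cauda libraries. let-7b-5p went from rank 31 to 40 and 54, and let-7e-5p from rank 55 to 72 and 84.

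Among the members let-7i-5p alone passed the test between segments on library size. It measured 1678, 776 and 1702 CPM in the caput libraries, 2757, 3022 and 3083 CPM in corpus libraries, and 3750.5, 4297 and 3048 CPM in cauda libraries. Every corpus and every cauda library was above every caput library, while the ranges of the corpus and the cauda overlapped. The means were 1385 ± 528, 2954 ± 173 and 3698 ± 626 CPM. From caput to cauda the fitted fold was 2.81 (log2 fold change 1.49, SE 0.35), and limma gave an adjusted p of 0.00238 (Benjamini-Hochberg over all miRNAs tested). From caput to corpus the fold was 2.26 (log2 fold change 1.18, SE 0.35, limma adjusted p = 0.0238), and from corpus to cauda the log2 fold change was 0.31 (SE 0.35, limma adjusted p = 0.575). A change in the number of vesicles of a source and a change in RNA per vesicle cannot be told apart in these libraries.

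The size of the rise in let-7i-5p depended on the scaling. After TMM normalization it measured 2227, 1624 and 1461 in caput libraries, 2553, 2648 and 2729.6 in corpus libraries and 3462, 3497 and 2368 in cauda libraries, and the caput libraries were again the lowest 3 of the 9. The log2 fold change from caput to cauda was then 0.81 (SE 0.23, limma adjusted p = 0.0122), which is below a fold of 2, and from caput to corpus 0.60 (SE 0.23, limma adjusted p = 0.0631). Without caput replicate 2 the values on library size were 1.12 (limma adjusted p = 0.00265) and 0.80 (limma adjusted p = 0.0268). The rise from caput to cauda thus stayed past an adjusted p of 0.05 under TMM normalization and without caput replicate 2, whereas the rise from caput to corpus did not under TMM normalization and was below a fold of 2 without caput replicate 2. Leaving out corpus replicate 1, 2 or 3 raised the adjusted p of the caput to corpus rise to 0.0619, 0.0772 and 0.0737.

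let-7d-5p, whose hairpin shares a transcript with let-7a-1 and let-7f-1, was also lowest in the caput. It measured 517, 302 and 671 CPM in caput libraries, 788, 884 and 586 CPM in corpus libraries and 905, 883 and 741 CPM in cauda libraries. The caput and cauda ranges did not overlap, but the log2 fold change of 0.83 (SE 0.38) between them had a limma adjusted p of 0.0758, and after TMM normalization it was 0.16 (SE 0.24, limma adjusted p = 0.58). Without caput replicate 2 it was 0.51 on library size (limma adjusted p = 0.149), and without caput replicate 3 it was 1.09 (limma adjusted p = 0.0192) and let-7d-5p was called.

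let-7b-5p and let-7e-5p ran in the other direction, with values that depended on the scaling. let-7b-5p measured 1661, 1307 and 2751 CPM in caput libraries, 1386, 1992 and 1321 CPM in corpus libraries and 1199, 1124 and 1007 CPM in cauda libraries. Each cauda library was below all libraries of the other segments. The log2 fold change from caput to cauda was -0.71 (SE 0.36, limma adjusted p = 0.102) on library size and -1.39 (SE 0.23, limma adjusted p = 0.000582) after TMM normalization, a fold of 2.62 lower. Without caput replicate 2 the library size value was -0.95 (limma adjusted p = 0.0222), under a fold of 2. On the TMM scale the caput libraries stood at 2204, 2736 and 2363 and the cauda libraries at 1107, 915 and 783.

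let-7e-5p, encoded beside miR-99b and miR-125a, measured 655, 369 and 977 CPM in caput libraries, 519.7, 662 and 453 CPM in corpus libraries and 287, 546 and 431 CPM in cauda libraries. The caput and cauda ranges overlapped through caput replicate 2. The log2 fold change was -0.60 (SE 0.42, limma adjusted p = 0.246) on library size and -1.28 (SE 0.25, limma adjusted p = 0.0014) after TMM normalization, a fold of 2.42 lower. Without caput replicate 2 it was -0.97 on library size, which passed an adjusted p of 0.05 (limma adjusted p = 0.0397) but stayed under a fold of 2. On the TMM scale the ranges did not overlap, at 869.6, 773 and 839 in caput libraries against 265, 444 and 335 in cauda libraries.

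let-7c-5p, the most abundant member of the caput, measured 11285, 7359 and 15851 CPM there, 8383, 10589 and 8746 CPM in corpus libraries and 9060.1, 9065 and 9274 CPM in cauda libraries. All corpus and cauda values lay within the caput range. The log2 fold change from caput to cauda was -0.26 (SE 0.29, limma adjusted p = 0.472), and after TMM normalization -0.94 (SE 0.17, limma adjusted p = 0.000969), just under a fold of 2. Without caput replicate 2 the library size value was -0.55 and passed an adjusted p of 0.05 (limma adjusted p = 0.0422).

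The other 3 members had a caput range that reached below that of the cauda only through caput replicate 2. For let-7a-5p and let-7g-5p, caput replicate 1 was also below every corpus library. let-7f-5p measured 11334, 4081 and 11235 CPM in caput libraries, 10952, 12711 and 10581 CPM in corpus libraries and 10214.5, 11382 and 8649 CPM in cauda libraries. let-7a-5p measured 4198, 2339.7 and 5880.1 CPM, then 4847, 5589 and 4452 CPM, then 3861, 4981 and 5045 CPM. let-7g-5p measured 1903, 1045 and 2338 CPM, then 2504, 2765 and 2221 CPM, then 2233, 2462 and 1692 CPM. Caput and cauda ranges in CPM overlapped for each of these members. Their log2 fold changes from caput to cauda were 0.32 (95% interval -0.41 to 1.05), 0.25 (-0.46 to 0.96) and 0.33 (-0.41 to 1.08) on library size, and -0.36, -0.43 and -0.34 after TMM normalization, with limma adjusted p values of 0.0643 or more throughout. The direction on library size turned without caput replicate 2, to -0.17, -0.11 and -0.0042, with limma adjusted p values of 0.466, 0.709 and 0.989. The intervals include 0 on library size, and some include a fold of 2, so a change of that size was not excluded.

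**Figure D1:**
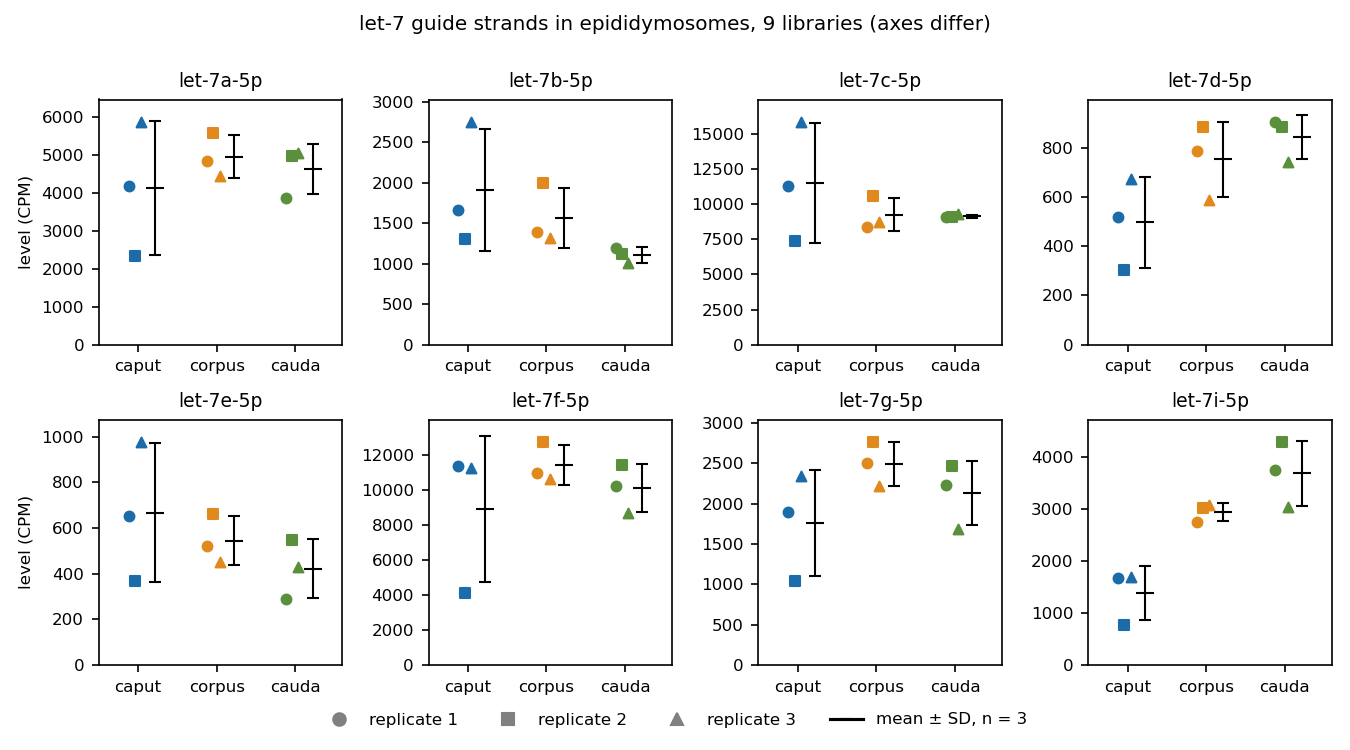
Level in CPM (vertical axis, from 0 and different in each panel) of the 8 let-7 guide strands by segment (horizontal axis), with 1 point per library and the mean ± SD of n = 3 beside it. let-7i-5p is higher in every corpus and cauda library than in any caput library, and caput replicate 2 (square) is the lowest caput point in each panel.

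Counted over the family, few members passed the test on library size. A miRNA was called at a fold of at least 2 and an adjusted p under 0.05. From caput to corpus 1 of 8 members was called, let-7i-5p, while 22.4% of all 321 miRNAs tested were called. From corpus to cauda 0 of 8 were called by limma on library size or after TMM normalization, against 19% and 26.3% of 342 miRNAs. At an unadjusted p under 0.05 these counts were 0 and 1, and limma-voom on recovered reads also called 0. Between caput and cauda 1 of 8 was called, let-7i-5p again, against 49% of 349 miRNAs. This last comparison shares its caput libraries with the first and its cauda libraries with the second.

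After TMM normalization the members called from caput to cauda were let-7b-5p and let-7e-5p, both lower, so 2 of 8 against 45.3% of all miRNAs called and 20.3% called lower, and from caput to corpus 0 of 8 were called against 28.3%, with 4 at an unadjusted p under 0.05 in limma. Taking the adjusted p alone after TMM normalization, let-7b-5p, let-7c-5p and let-7e-5p were lower in the corpus than in the caput, with log2 fold changes of -0.81, -0.83 and -0.78 and limma adjusted p values of 0.0205, 0.00511 and 0.034, so 3 of 8 against 21.2% of all miRNAs. In the cauda the same 3 were lower than in caput libraries and let-7i-5p was higher, so 4 of 8 passed against 51.3%. By the F test over the 3 segments, 1 of 8 members passed on library size (let-7i-5p, limma adjusted p = 0.0053) against 48.9% of all miRNAs. After TMM normalization let-7b-5p, let-7c-5p, let-7e-5p and let-7i-5p passed, 4 of 8 against 57%.

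The median log2 fold change of the members stood near or below that of all miRNAs tested. It was 0.43 against 0.47 from caput to corpus, -0.14 against 0.18 from corpus to cauda, and 0.28 against 0.81 from caput to cauda. After TMM normalization the same pairs were -0.15 against -0.09, -0.24 against 0.08 and -0.39 against 0.13. Relative to the median of all miRNAs, the log2 fold change of let-7i-5p from caput to cauda was 0.68. That of let-7d-5p was 0.02, of let-7c-5p -1.07, of let-7e-5p -1.41 and of let-7b-5p -1.52. A scaling factor moves all miRNAs of a library alike, so these differences come out nearly the same under either scaling by construction.

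The libraries of the 2 segments did not overlap in CPM for 1 member from caput to corpus (let-7i-5p), against 34.9% of all miRNAs, and for 1 from corpus to cauda (let-7b-5p), against 46.2%. Between caput and cauda this held for 3 members, let-7b-5p, let-7d-5p and let-7i-5p, against 54.2%. On the TMM scale 4 members did not overlap from caput to corpus, against 47.7% of all miRNAs: let-7i-5p higher, and let-7b-5p, let-7c-5p and let-7e-5p lower. From corpus to cauda it was 1, let-7b-5p, against 47.4%. Between caput and cauda it was 5, against 58.7%, with let-7i-5p higher and let-7a-5p, let-7b-5p, let-7c-5p and let-7e-5p lower.

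**Figure D2:**
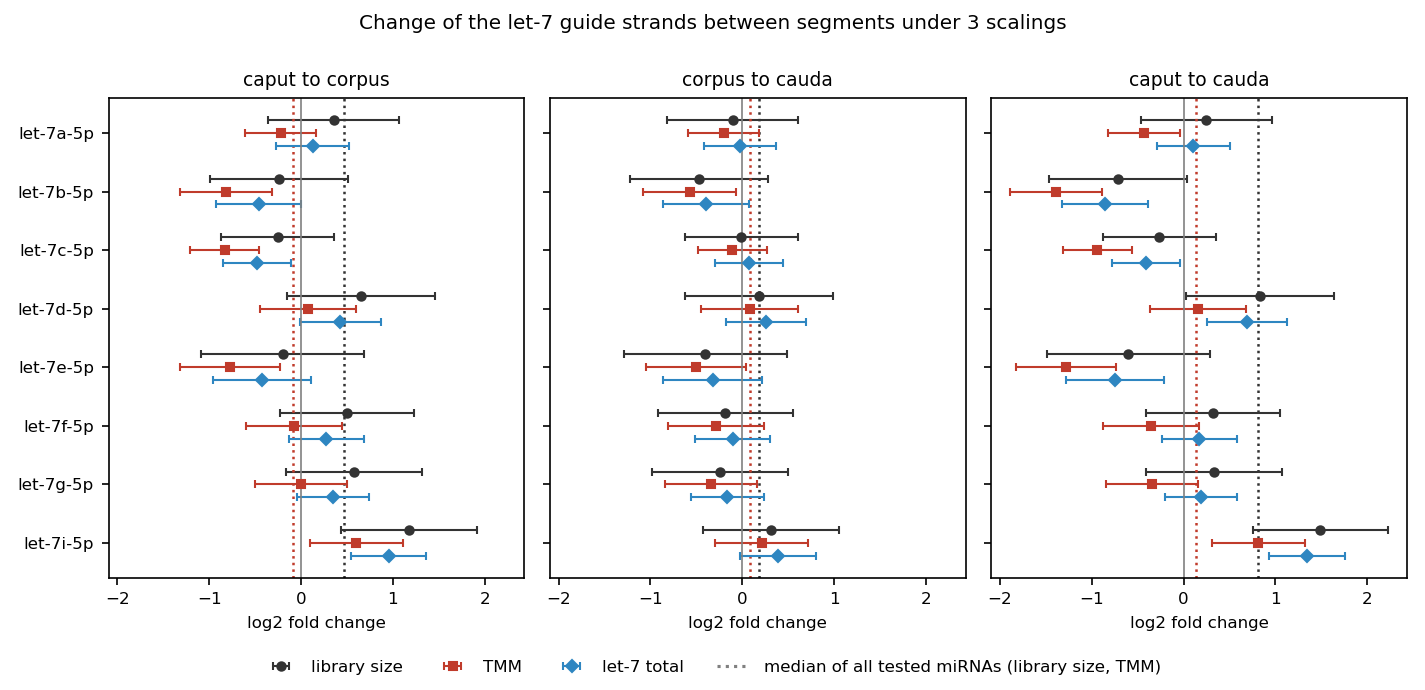
Log2 fold change with its 95% interval (horizontal axis) of each let-7 guide strand (vertical axis) in the 3 comparisons, on library size (circles), after TMM normalization (squares) and relative to the summed let-7 reads (diamonds), with dotted lines at the median of all miRNAs tested on library size and after TMM normalization. let-7i-5p lies right of 0 with its whole interval from caput to corpus and from caput to cauda under all 3 scalings. From caput to cauda let-7b-5p, let-7c-5p and let-7e-5p lie left of 0 under all 3 scalings, but their intervals on library size include 0.

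The make-up of the family can be followed without any scaling between libraries, as the share of each member in the summed reads of all 8. let-7i-5p took 5.05, 4.42 and 4.11% of these reads in the caput, 8.58, 7.91 and 9.81% in corpus libraries, and 11.9, 12.4 and 10.2% in cauda libraries. The segments did not overlap, and the means rose from 4.53 ± 0.480% to 8.76 ± 0.962% and 11.5 ± 1.14%. let-7d-5p had shares of 1.56, 1.72 and 1.62% in caput libraries, 2.45, 2.31 and 1.86% in corpus libraries, and 2.87, 2.54 and 2.48% in cauda libraries, again without overlap.

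In the opposite direction, let-7b-5p had a mean share of 6.36 ± 1.24% in caput libraries, 4.58 ± 0.555% in corpus libraries and 3.47 ± 0.298% in cauda libraries. let-7e-5p had 2.14 ± 0.198%, 1.60 ± 0.147% and 1.31 ± 0.349%. let-7c-5p had 38.0 ± 3.96%, 27.2 ± 0.970% and 28.6 ± 2.47%. Each caput library was above each cauda library for these 3 members. let-7f-5p ranged from 23.2 to 34.1% of the family, with both ends in the caput, and the caput and cauda ranges of let-7a-5p and let-7g-5p overlapped as well.

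With the reads scaled to the let-7 total in place of library size, let-7i-5p was above its caput level in the cauda by 1.34 on the log2 scale (SE 0.19, limma adjusted p = 0.000234) and in the corpus by 0.95 (SE 0.19, limma adjusted p = 0.00586). From caput to cauda let-7d-5p was 0.69 higher (SE 0.20, limma adjusted p = 0.0128), let-7b-5p fell by 0.86 (SE 0.21, limma adjusted p = 0.00586) and let-7e-5p fell by 0.75 (SE 0.24, limma adjusted p = 0.0226). let-7c-5p stood at -0.41 (SE 0.17, limma adjusted p = 0.0532). Only let-7i-5p reached a fold of 2 among the 8 members on this scale, in the comparison of caput and cauda, where 49.9% of all miRNAs were called. In the comparison of caput and corpus 0 of 8 members were called by limma on this scale, where let-7i-5p alone had an adjusted p under 0.05 and 2 had an unadjusted p under 0.05, against 26.2% of all miRNAs called. Shares of a fixed total are tied to each other, so a rise in some members lowers the shares of the rest.

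**Figure D3:**
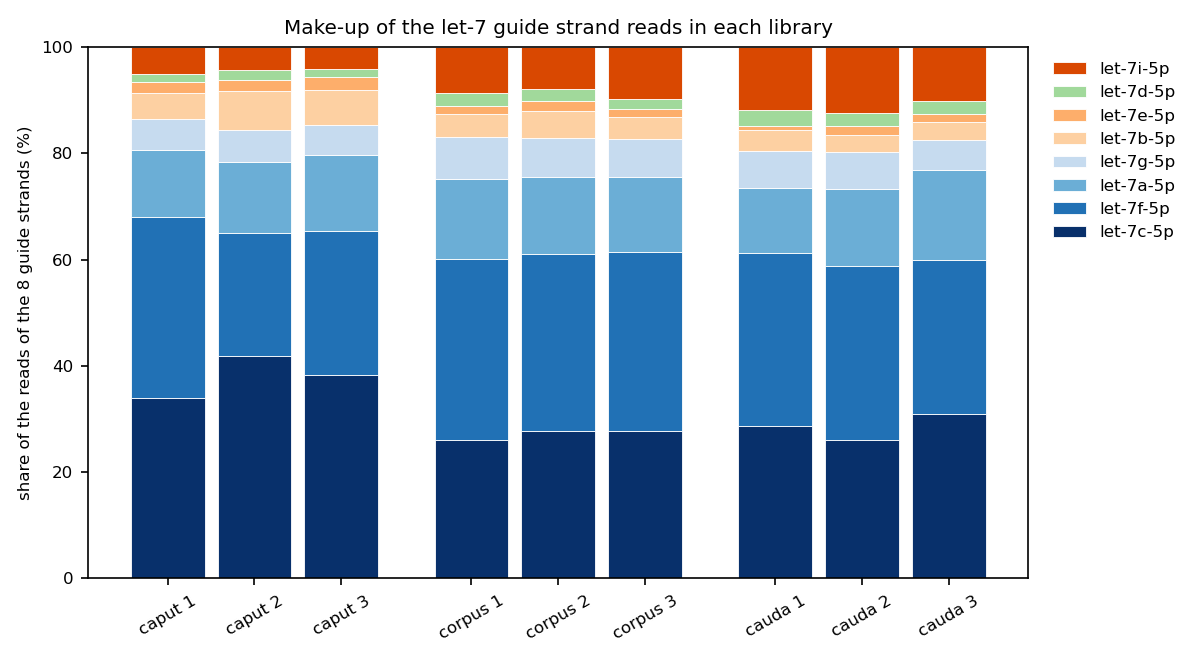
Share of each let-7 guide strand in the summed reads of all 8 (vertical axis, percent) in each of the 9 libraries (horizontal axis), stacked to 100. The top band, let-7i-5p, widens from 4.11 to 5.05% in the caput to 10.2 to 12.4% in the cauda, while let-7c-5p at the base takes 34.0 to 41.9% in the caput and 26.1 to 31.0% in the cauda.

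Among members that differ by a single base, some ratios were alike in all segments and others were not. The ratio of let-7a-5p to let-7f-5p ranged from 0.370 to 0.583 over the 9 libraries, with overlap between all segments. That of let-7b-5p to let-7c-5p was 0.166 ± 0.0165 in caput, 0.168 ± 0.0187 in corpus and 0.122 ± 0.0121 in cauda libraries. That of let-7a-5p to let-7c-5p was 0.354 ± 0.0309, 0.538 ± 0.0357 and 0.507 ± 0.0697, lower in every caput library than in any other. The ratio of let-7a-5p to let-7e-5p was 6.25 ± 0.208 in caput libraries, 9.20 ± 0.701 in corpus libraries and 11.4 ± 2.17 in cauda libraries, and its segment ranges did not overlap between caput and the later segments. As a description over the 9 libraries, which share depth and scaling, Pearson correlations between pairs of members on log2(CPM + 1) ranged from -0.32 to 0.95 with a median of 0.64. Relative to the let-7 total the median was -0.15, but values scaled to their own total are tied to each other, which by itself makes correlations negative on average.

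The guide strands exceeded their passenger strands, with which they leave the same hairpin, in every precursor that could be measured. A ratio of the strands of a hairpin does not depend on the scaling of libraries. Passenger strands of 6 precursors were in the data, and the hairpins of let-7i and let-7f-2 are printed because their ratios are described below. They come from RefSeq (GRCm38.p6), with the guide strand and then the passenger strand in capitals, at chr10:122985640-122985724 on the minus strand and chrX:151912346-151912428 on the plus strand.
Mirlet7i: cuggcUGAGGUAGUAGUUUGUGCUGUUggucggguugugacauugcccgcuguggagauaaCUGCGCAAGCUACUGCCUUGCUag
Mirlet7f-2: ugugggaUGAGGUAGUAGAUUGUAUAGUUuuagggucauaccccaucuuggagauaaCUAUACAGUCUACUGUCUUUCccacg

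Of the 6 passenger strands, limma on library size called 1, higher, from caput to corpus (22.4% of all miRNAs were called) and 2, 1 higher and 1 lower, from caput to cauda (49%). After TMM normalization it called 4 from caput to corpus (28.3%), 1 higher and 3 lower, of which let-7a-1-3p and let-7c-2-3p share a sequence, and 2 from caput to cauda (45.3%), both lower. let-7i-3p, the passenger strand of let-7i, measured 10.8, 12.6 and 15.0 CPM in caput libraries, 43.8, 35.6 and 39.4 CPM in corpus libraries and 22.5, 32.0 and 27.1 CPM in cauda libraries. It was therefore higher in both later segments, as its guide was, by a log2 fold change of 1.56 to the corpus (limma adjusted p = 0.0114) and 1.03 to the cauda (limma adjusted p = 0.0411). The latter was 0.39 after TMM normalization (limma adjusted p = 0.325). The log2 ratio of guide to passenger strand was 6.63 ± 0.674 in caput libraries, 6.21 ± 0.220 in corpus libraries and 7.06 ± 0.283 in cauda libraries, and its change from caput to cauda of 0.43 (SE 0.37, limma adjusted p = 0.378) was within the spread.

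let-7b-3p, the partner of let-7b-5p, was also lower distally. It had 28.9, 39.4 and 75.8 CPM in caput libraries, 16.5, 15.7 and 18.7 CPM in corpus libraries and 8.50, 14.2 and 25.1 CPM in cauda libraries, with a log2 fold change from caput to cauda of -1.54 (limma adjusted p = 0.0154), or -2.19 after TMM normalization (limma adjusted p = 0.000768). The log2 ratio of its strands changed by 0.86 (SE 0.44, limma adjusted p = 0.191).

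Of 6 let-7 precursors, 1 passed the test of the strand ratio from caput to cauda, against 19.4% of the 72 precursors tested. It was let-7f-2, with log2 ratios of 9.28, 9.23 and 8.62 in caput libraries, 9.90, 10.2 and 9.93 in corpus libraries and 9.86, 10.4 and 9.86 in cauda libraries, a change of 1.00 (SE 0.30, limma adjusted p = 0.0409). Its passenger strand lay at 6.28 to 28.0 CPM, and let-7f-5p also comes from the let-7f-1 hairpin, so the ratio mixes loci. The call was lost in 8 of the 9 fits that left out 1 library, where the adjusted p ranged from 0.0322 to 0.133. It held only without cauda replicate 3, where let-7b and let-7d passed as well. Ratios differed widely between precursors, from a mean of 2.12 ± 0.580 for let-7d in the caput to the 10.05 ± 0.326 of let-7f-2 in cauda libraries. let-7a-1-3p and let-7c-2-3p have the same mature sequence and shared their reads, so their ratios are not separate measurements.

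**Figure D4:**
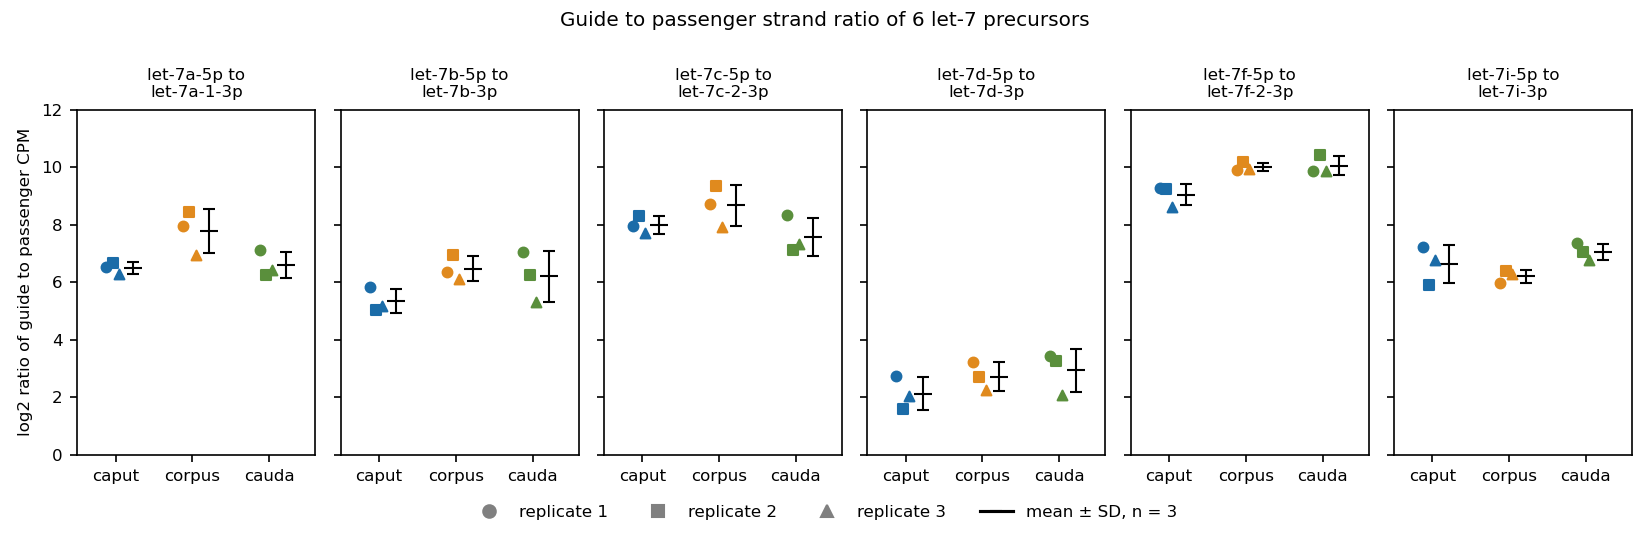
Log2 ratio of guide to passenger CPM (vertical axis, with a pseudocount of 0.5 CPM) of 6 let-7 precursors by segment (horizontal axis), with 1 point per library and the mean ± SD of n = 3. Every point lies above 0; let-7f-2 has all corpus and cauda points above its caput points, and let-7i is lowest in the corpus on average.

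Other miRNAs linked to the family by seed, name or transcript were read from lists. Of 5 further names of the let-7 family, miR-98-5p and let-7j were in the data, and limma called neither in any comparison, on library size or after TMM normalization, with let-7j alone at an unadjusted p under 0.05, from caput to cauda on library size. miR-98-5p, encoded beside let-7f-2, had 471 ± 117 CPM in caput libraries, 659 ± 44.3 CPM in corpus libraries and 717 ± 278 CPM in cauda libraries. let-7j had 282 ± 117, 422 ± 28.8 and 521 ± 56.6 CPM, with a log2 fold change from caput to cauda of 0.99 (limma adjusted p = 0.0508), and its level was 0.122 to 0.208 times that of let-7i-5p.

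Mammalian let-7 hairpins often lie beside members of the miR-99, miR-100 and miR-125 families. Of 11 such strands 9 were in the data. Between caput and cauda 2 of these were lower, against 10.3% of all miRNAs, and 0 were higher by limma on library size. Both are encoded with let-7e: miR-125a-5p with a log2 fold change of -1.57 (limma adjusted p = 0.00148) and miR-99b-5p with -1.07 (limma adjusted p = 0.0065). After TMM normalization these were -2.24 and -1.75. The other strand of miR-99b, miR-99b-3p, was not called, at -0.087 on library size (limma adjusted p = 0.874). After TMM normalization it stood at -0.73 (limma adjusted p = 0.0647). Between corpus and cauda 1 was lower, miR-125a-5p, against 4.97% of all miRNAs, and from caput to corpus limma called 0 of 9 on library size, with 0 at an unadjusted p under 0.05. The miRNAs whose levels over the 9 libraries ran most like the mean of the members were miR-29c-3p, miR-181d-5p, miR-181b-5p, miR-301a-3p and miR-181c-5p, with Pearson r of 0.947, 0.938, 0.934, 0.910 and 0.910 among 301 candidates. Each of them also had its lowest value in caput replicate 2.

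Levels of miRNAs listed as markers of cells other than the epithelium moved with the segments as well. The germ cell list is not confined to germ cells, as it holds miR-34c-5p and the paper reports miR-34c in the epididymal epithelium. By immunoblot the paper detected neither haemoglobin, its marker of blood, nor ALOX15, its marker of sperm cytoplasmic droplets, in the epididymosome preparations. The summed level of 4 smooth muscle miRNAs was 50115 to 88995 CPM in caput libraries, 88423 to 121412 CPM in corpus libraries and 291676 to 354786 CPM in cauda libraries. That of 4 striated muscle miRNAs was 55.5 to 197, 121 to 167 and 1403 to 4146 CPM, that of 4 red blood cell miRNAs 223 to 848, 389 to 1104 and 3019 to 4348 CPM, and that of 9 germ cell miRNAs 334 to 1013, 774 to 970.1 and 1925 to 2256 CPM. On library size all members of these 4 lists were called higher in cauda than in caput libraries, against 38.7% of all miRNAs. After TMM normalization this held for 4 striated muscle, 2 smooth muscle, 2 red blood cell and 5 germ cell miRNAs. Of 5 leukocyte miRNAs 3 were called higher under either scaling, with sums of 231 to 529.97, 515 to 1149 and 392 to 1601 CPM. The sum of 6 epithelial miRNAs was 21864 to 33624, 73871 to 85321 and 46003 to 62093 CPM, with 1 called higher in cauda and 2 in corpus than in caput libraries on library size. After TMM normalization 0 were called higher and 1 lower in cauda libraries, and 1 higher and 1 lower in corpus libraries (limma). From caput to corpus the log2 fold changes of these 6 ranged from -0.67 to 1.88 on library size, so their sum does not describe each of them. Of the miRNAs listed, miR-208b-3p, a striated muscle marker named after its value was seen, was at 0 in 1 caput library. let-7 members are made in most cell types, and the part of these cells in the levels of let-7i-5p, let-7b-5p and let-7e-5p was not tested.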

How the data were processed

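Small RNA from epididymosomes of 3 segments was sequenced in 9 libraries of pooled RNA. The authors screened reads for contaminants, counted them on known mature miRNAs with the miRDeep2 quantifier and normalised by library size. The submitters' processing notes also name CASAVA 1.8.2, Bowtie 1.1.1 and limma. The deposited values are CPM. In every library 100% of the low values were whole multiples of 1 read (within 0.05), which gave the library totals. Genome build and miRBase release are not given in the sources used here. Counting errors cover counting only, and p-values measure the spread between pools.

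Segments were compared with limma 3.58 in R 4.3, fitting log2(CPM + 1) with lmFit and then eBayes (trend = TRUE), with all 9 libraries and segment as the only factor. The fit covered all 358 miRNAs, with Benjamini-Hochberg adjustment over those whose mean reached 10 CPM in a compared segment. Fold changes are on that scale, which understates changes of low miRNAs. Strand ratios used a pseudocount of 0.5 CPM and precursors with both strands at a mean of 10 CPM. The fit was also run on simulated data in which the most abundant miRNAs stayed unchanged, so shifts in their share were not tested. Alternatives were other scalings, filters, pseudocounts, limma-voom on recovered reads, a replicate block and each library left out. Scaling to the let-7 total, and TMM normalization with no fold minimum, were added after seeing the data. Named miRNAs are all 8 members, other names of the family, passenger strands, cluster partners and the 5 most alike. Members and lists were chosen with earlier results of these data known. Sequences are from RefSeq (all 8 members, and 299 of 358 names, matched) and gene models from GENCODE for GRCm38. Python 3.11 with numpy 2.4, pandas 2.3 and matplotlib 3.10 was used. Sperm and epithelial cell data were not analysed here.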

Additional observations from a re-analysis of the deposited data

How the results depend on the processing

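With 3 pools per segment, small changes could not be resolved, and the spread of the caput rests largely on caput replicate 2. From caput to corpus the number of members called was 1 on library size, 0 after TMM normalization, median-of-ratios scaling, library size without miR-10a-5p, miR-10b-5p and miR-143-3p, or scaling to the let-7 total, and 3, all lower, after TMM normalization with no fold minimum. From caput to cauda it was 1, against 2 after TMM normalization or median-of-ratios scaling and 4 after TMM normalization with no fold minimum. In any segment it was 1, against 4 after TMM normalization, 4 after median-of-ratios scaling and 3 without the most abundant miRNAs. From corpus to cauda it was 0 under every alternative run.

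The log2 difference of the summed let-7 level from caput to corpus was 0.22, against -0.35 after TMM normalization and -0.30 after median-of-ratios scaling. From caput to cauda it was 0.15, against -0.53 and -0.58. From corpus to cauda it was -0.08, against -0.28 after median-of-ratios scaling and 0.065 without the most abundant miRNAs. Apart from the construction of the scalings, the cause was not tested.

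With each library left out in turn, the number called ranged from 0 to 1 from caput to corpus (0 without caput replicate 2 or corpus replicate 1, 2 or 3), from 1 to 2 from caput to cauda (2 without caput replicate 3) and from 1 to 2 in any segment. The number of strand ratios called, 1 in all, ranged from 0 to 3 (3 without cauda replicate 3). The summed level ranged from -0.13 to 0.48 from caput to corpus, from -0.14 to 0.01 from corpus to cauda and from -0.21 to 0.40 from caput to cauda.

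The log2 fold change of let-7i-5p ranged from 0.77 to 1.68 from caput to cauda over all alternatives, with adjusted p from 0.000234 to 0.0175, and from 0.60 to 1.37 from caput to corpus, with adjusted p from 0.00586 to 0.0772 (limma). Replicate numbers recur in every segment. Deviations of same-numbered libraries correlated at -0.21 to 0.41, with 6 of 9 pairs over 0.1, and those of different-numbered libraries at -0.45 to 0.18. Whether the numbers pair the libraries is not given in the sources used here, and these values do not settle it. The main fit had no replicate block. With the replicate block 1, 0 and 1 members were called in the 3 comparisons, as without it, and let-7f-2 remained the strand ratio called (adjusted p = 0.037 with the block). A quasi-likelihood test of recovered reads was planned and not run, because too few values lie at low read numbers to establish the recovery as a count test requires. The read numbers, counting errors and limma-voom rest on that recovery.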
